A study of Mus musculus with 6 samples.

Results

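Glutathione transferases were followed as 10 genes, Gsta2, Gsta3, Gsta4, Gstm1, Gstm2, Gstp1, Gsto1, Gstt1, Gstk1 and Mgst1, of the 34789 gene names measured on single-colour Agilent expression arrays. They were chosen by name as members of this enzyme family, and every probe that the array files assign to one of these names was taken, which gave 17 probes. The cells were mProx24, a mouse proximal tubular cell line from the C57B6 strain. All conditions shared the line and its culture medium, apart from the glucose given for each below. Cells given the triple stimuli with rapamycin were kept at 1% oxygen for 12 hours in high glucose and stimulated with 150 µM palmitate on 0.15% albumin for 9 hours, with 0.4 µg/ml rapamycin, an inhibitor of the kinase mTOR, for 12 hours before palmitate. Triple stimuli were the same without rapamycin, and hypoxia was 1% oxygen for 12 hours in medium labelled NG with PBS. A further pair of arrays held single stimuli at 20% oxygen, one of them high glucose (HG) with PBS. The other was 150 µM palmitate on 0.15% albumin for 9 hours in NG medium, which the labels call high FFAs. Control cells were kept at 20% oxygen in NG medium with PBS. The labels of the single-stimulus pair were exchanged between the scanner files and the deposited value table. Array A carries the high glucose label in the scanner files but the high FFAs label in the table of values, and array B carries them in reverse. Neither was relabelled, and which stimulus each received is not settled here. Each condition had 1 array, so no difference below has a replicate check, and no p-value or interval between cultures could be given.

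Glutathione transferases join the tripeptide glutathione to electrophilic compounds, and the conjugates are exported and trimmed to mercapturates, a step for which the renal proximal tubule is known. The soluble enzymes fall into classes named alpha, mu, pi, theta and omega. A kappa enzyme sits in mitochondria and peroxisomes, and microsomal enzymes sit in membranes. Several alpha and mu genes, with Nqo1 and Hmox1, are known targets of the transcription factor NRF2, which is released from its inhibitor Keap1 by oxidants and electrophiles.

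The sequences of the probes matter here because the Gsta2 probe shared most of its letters with a probe of another gene name. Capitals mark the bases that lie in runs of at least 16 shared between the Gsta2 probe and the Gm10639 probe. In the Gm3776 probe they mark the run it shares with the Gsta2 probe.
Gsta2 probe: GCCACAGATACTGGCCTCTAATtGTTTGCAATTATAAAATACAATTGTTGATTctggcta
Gm10639 probe: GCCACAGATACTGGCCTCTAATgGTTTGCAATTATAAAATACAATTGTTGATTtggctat
Gm3776 probe: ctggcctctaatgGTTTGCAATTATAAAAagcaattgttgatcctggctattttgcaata
Of the Gsta2 probe's 60 bases, 52 lay in runs shared with the Gm10639 probe, the longest of 30 bases, and 16 in a run shared with the Gm3776 probe. With the sequences laid side by side without gaps, 53 bases matched for Gm10639 and 46 for Gm3776. On the mm9 build given in the array files the Gsta2 probe mapped to chr9:78178856-78178915 on the minus strand, the Gm10639 probe to chr9:78153243-78153302 and the Gm3776 probe to chr9:78116894-78116953, both on the plus strand. The files describe Gm10639 and Gm3776 as predicted genes, and in the RefSeq gene table both lie between Gsta1 and Gsta2. No probe named Gsta1 was used here. The signal read as Gsta2 may therefore hold RNA of more than 1 gene of this cluster, and how much each gene contributed was not tested.

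No probe of another gene name shared a run of 16 bases with the probes of the other 9 members. The probes that represent Gsta3, Gsta4 and Gstm2, the other members on which the results turn, were as follows, in lower case since no part is marked.
Gsta3 probe: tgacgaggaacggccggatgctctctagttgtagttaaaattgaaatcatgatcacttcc
Gsta4 probe: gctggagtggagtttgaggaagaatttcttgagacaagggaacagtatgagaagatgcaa
Gstm2 probe: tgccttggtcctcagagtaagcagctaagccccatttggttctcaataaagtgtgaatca
On mm9 these mapped to chr1:21255189-21255248 on the plus strand, chr9:78046172-78047344 on the plus strand and chr3:107784622-107784681 on the minus strand. The Gsta4 probe covered 1173 bases of the genome with 60 letters, so its letters lie in more than 1 exon. The probe that represents Gstm1 mapped to chr5:117082490-117082549, away from the chromosome 3 position of the gene's other probe (chr3:107815595-107815654), although both carry Gstm1 accessions. A second Gstp1 probe carried accessions of both Gstp1 and Gstp2, and the first shared a run of 13 bases with a Gstp2 probe, so these neighbouring pi genes may not be separated.

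Values below are log2 levels, the log2 of the scanner software's processed signal over the 75th percentile of the same array, so that 0 is that percentile. Differences between arrays were taken within 1 probe, and levels of different members were not compared with each other. The sums over marker lists below add linear levels of different probes. A gene was counted as higher or lower where its log2 difference reached 1 (2-fold). A gene with several probes was represented by the one with the highest mean level. On each array 40.3% to 43.8% of spots were well above background and none was saturated. Of 20 proximal tubule markers, 9 were above background on at least 1 array and 8 on all 6, among them Lrp2, Cubn, Aqp1 and Slc4a4. Slc34a1, Slc5a2, Slc22a6, Hnf4a, Miox and Fbp1, which define the tubule segment in tissue, were not above background on any. As a check of the oxygen label, 9 of 10 known targets of the hypoxia-inducible factor HIF were at least 2-fold higher in hypoxia than in control, Ankrd37 by 3.92, Pdk1 by 2.86, and Ak4 and Bnip3, whose spots lie in the first 64 rows, by 4.59 and 3.14. In bulk RNA such as this, fewer expressing cells and less RNA per cell cannot be told apart.

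Of the 10 members, 9 were well above background on all 6 arrays. The microsomal gene Mgst1 was above background on none, with both of its probes, so only that it was not detected can be said. The alpha genes varied most over the 6 arrays, by 2.47 for Gsta2, 2.47 for Gsta3 and 1.60 for Gsta4 on the log2 scale. The pi gene Gstp1 varied least, by 0.66, and Gsto1 by 0.78, Gstm1 by 0.93, Gstt1 by 0.98, Gstk1 by 1.10 and Gstm2 by 1.36 lay between. Gsta4 was printed as 10 spots on each array and gives the only measure of error among the members: the SD of its levels over spots was 0.04 to 0.08. Over the 79 to 80 probes of the arrays with at least 10 spots, the median SD of a difference between arrays was 0.06 to 0.08. This covers error within an array only and not that between cultures.

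**Figure D1:**
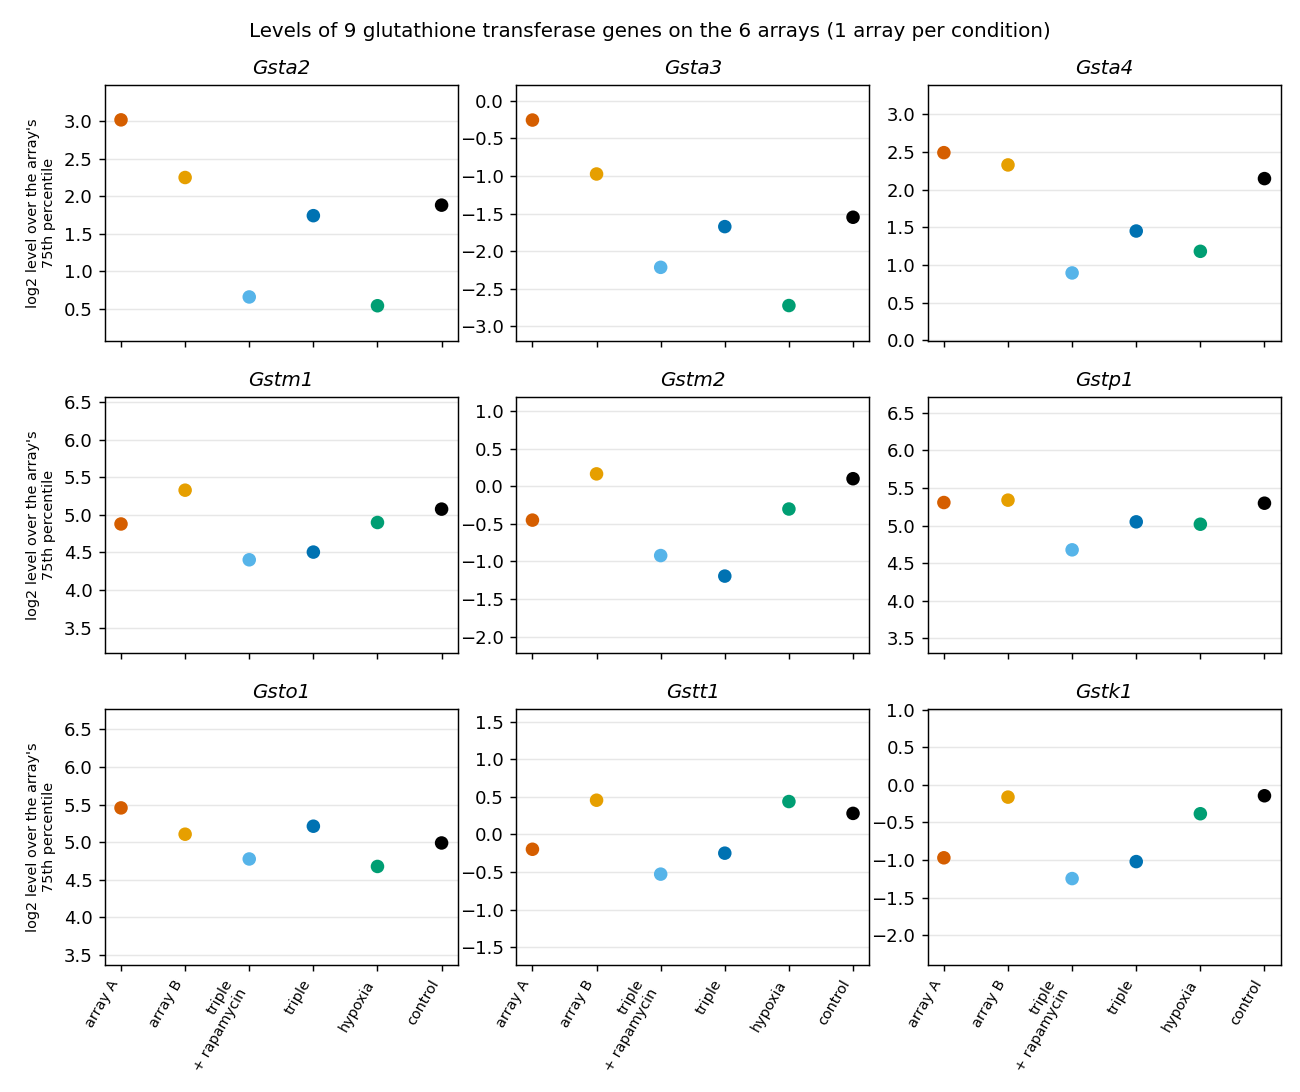
Log2 level of each of the 9 detected members (y axis, each panel spanning the same log2 range) on the 6 arrays (x axis, 1 point per array and no error bar, since each condition had 1 array). Gsta2 and Gsta3 are highest on array A, at 3.01 and -0.26, and lowest in hypoxia, at 0.54 and -2.72, while Gstp1 stays between 4.68 and 5.34.

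Among the alpha enzymes, Gsta2 and Gsta3, which encode conjugating enzymes for a broad range of electrophiles, showed the largest differences. Gsta2 had a level of 3.01 on array A, 2.25 on array B, 0.66 in triple stimuli with rapamycin, 1.74 in triple stimuli, 0.54 in hypoxia and 1.88 in control. Gsta3 had a level of -0.26 on array A, -0.97 on array B, -2.21 in triple stimuli with rapamycin, -1.67 in triple stimuli, -2.72 in hypoxia and -1.55 in control. Both were highest on array A and lowest in hypoxia, with triple stimuli close under control at these probes. The second Gsta3 probe lay further under control in triple stimuli, at -2.82 against -2.25. Gsta4, whose enzyme prefers the lipid peroxidation product 4-hydroxynonenal, had a level of 2.49 on array A, 2.33 on array B, 0.89 in triple stimuli with rapamycin, 1.45 in triple stimuli, 1.18 in hypoxia and 2.15 in control. Its order differed in that triple stimuli with rapamycin was lowest and triple stimuli lay well under control.

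In hypoxia, 2 of 9 measured members were at least 2-fold lower than control, Gsta2 by a log2 difference of -1.34 (2.53-fold lower) and Gsta3 by -1.17 (2.26-fold lower), and none was higher. Of all gene names measured, 0.46% were lower by that size and 4.41% higher. Gsta4 lay just short of the threshold at -0.97. Of the 9 members, 8 were below control, and 51.7% of all gene names were. The median member difference was -0.31, against -0.01 over all gene names. With normexp background correction and quantile normalization Gsta3 was at -0.68, short of 2-fold. The one above was the theta gene Gstt1, at 0.16. The smallest decreases were those of Gstm1 at -0.18 and Gstk1 at -0.24.

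Gsta2 has a single spot, in row 26, and the arrays at 1% oxygen had more 2-fold calls in their first 64 rows of spots. There 9.15% of gene names were higher and 0.347% lower in hypoxia than in control, against 2.04% higher and 0.824% lower in the last 64 rows. Among gene names above background on both arrays with a mean level of at least 0, as Gsta2 was, the shares in the first 64 rows were 2.0% higher and 0.27% lower. The probes nearest to Gsta2 in sequence lay elsewhere on the array. The Gm10639 probe, in row 240, had a level of 2.37 in hypoxia and 3.53 in control, a difference of -1.16. The Gm3776 probe, in row 238, had a level of 1.81 in hypoxia and 2.91 in control, a difference of -1.09. A probe with the same letters as the Gm3776 probe, named for a region of chromosome 9 and printed in row 50, had a difference of -1.18. The Gm10639 and Gm3776 probes share letters with the Gsta2 probe but may read RNA of other genes of the cluster. Gsta2 itself had no spot outside the first 64 rows, so the part of spot row in its difference was not tested. The Gsta3 probe, in row 172, lies outside those rows. The second Gsta3 probe, in row 282, was not above background in hypoxia and gave a difference of -0.83 or lower.

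**Figure D2:**
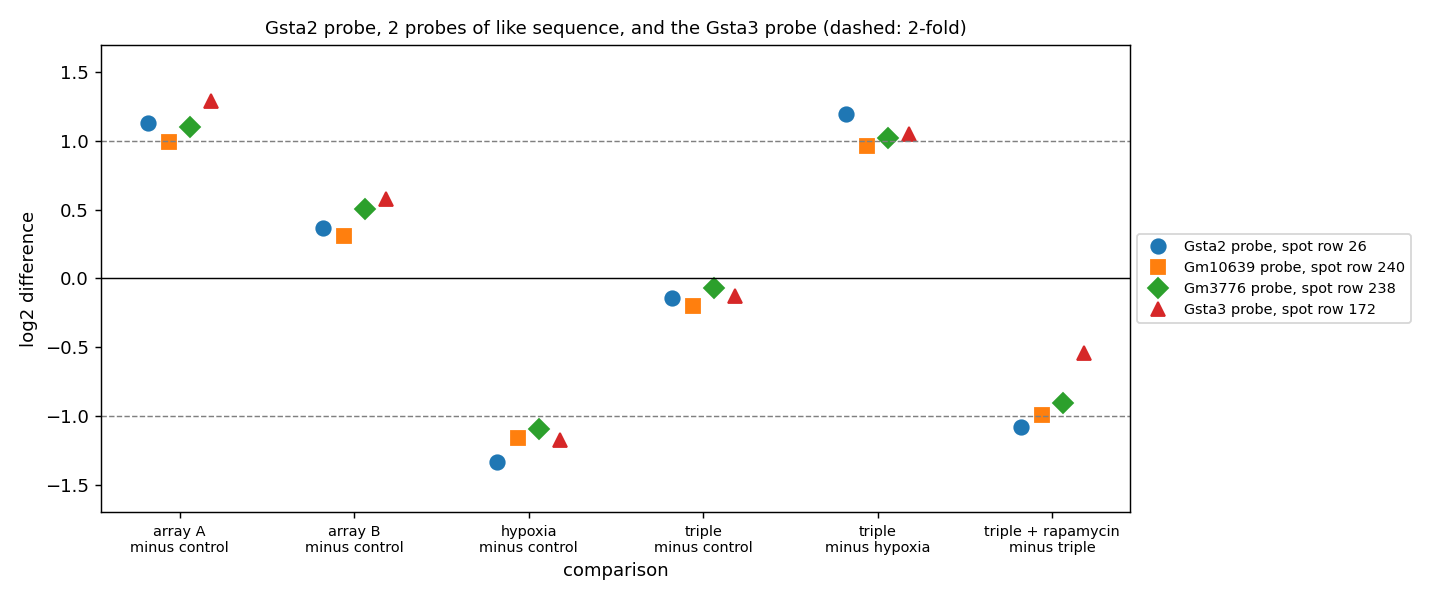
Log2 difference (y axis) of the Gsta2 probe, the Gm10639 and Gm3776 probes that share letters with it, and the Gsta3 probe in the 6 comparisons (x axis), 1 point per probe and comparison with no error bar. The points lie close together in the first 5 comparisons, and in triple stimuli with rapamycin minus triple stimuli Gsta3, at -0.54, lies apart from Gsta2 at -1.08.

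The repeated spots of Gsta4 show the error of such a value within an array. Over 10 spots between rows 58 and 383, 1 of them marked as an outlier by the scanner software, the difference between hypoxia and control was -0.95 ± 0.06 (SD over spots), and ranged between -1.04 and -0.81. The spot in the first 64 rows gave -0.998, within the range of the others. Every spot of Gsta4 was lower on each array at 1% oxygen than on each array at 20%. At this spread between spots, 2-fold is a threshold that Gsta4 spots fall on both sides of.

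**Figure D3:**
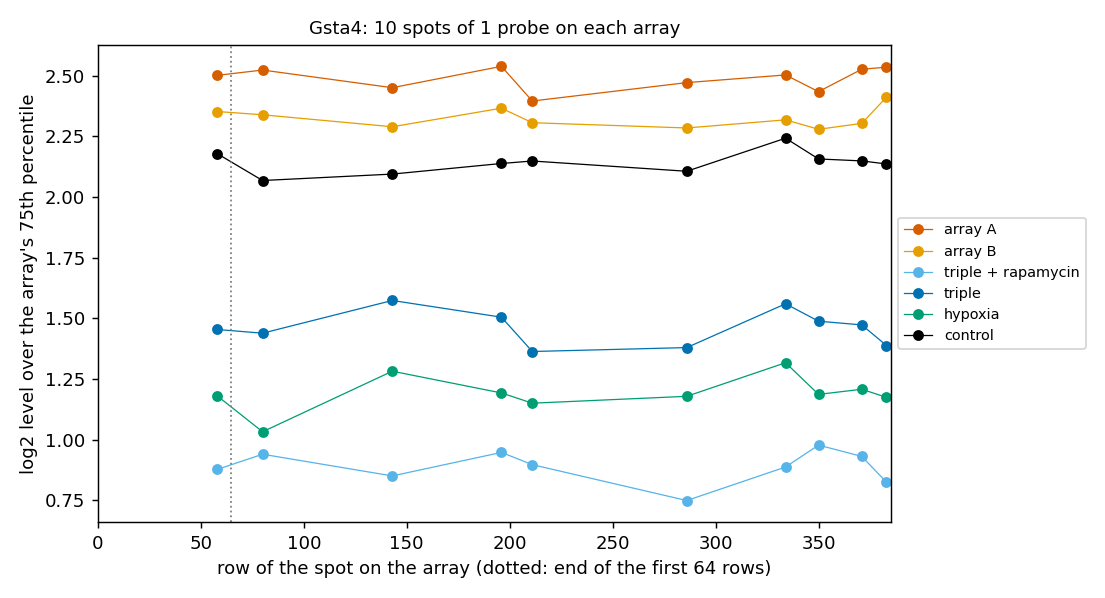
Log2 level of Gsta4 (y axis) at each of its 10 spots by spot row (x axis), with 1 line per array. The lines of the 3 arrays at 1% oxygen lie between 0.75 and 1.57 at all rows, and those of array A, array B and control between 2.07 and 2.54.

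Array A was compared with control for the effect of a single stimulus at 20% oxygen. Of 9 members, 2 were at least 2-fold higher, Gsta2 by 1.13 (2.19-fold) and Gsta3 by 1.29 (2.45-fold), and none was lower. Of all gene names, 1.57% were higher and 0.903% lower by that size. The alpha and omega members lay above control, the mu, theta and kappa members below it, and Gstp1 at 0.01. Gsta4 and the omega gene Gsto1, whose enzyme reduces dehydroascorbate and disulphides with glutathione, were above control at 0.34 and 0.47. The mitochondrial kappa gene Gstk1 was lowest relative to control at -0.82, followed by Gstm2 at -0.55, Gstt1 at -0.48 and Gstm1 at -0.20. The second Gsta3 probe gave 0.84, and with normexp and quantile normalization the first gave 0.94. The Gm10639 and Gm3776 probes gave 0.99 and 1.10. The second Gstt1 probe, in row 208, gave 0.03 against -0.48 for the probe in row 42, so the probes of Gstt1 differ.

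Array B against control gave 0 members higher and 0 lower, beside 0.308% and 0.28% of all gene names. Of 9 members, 8 were above control, and 56.9% of all gene names were. At the probes that represent the genes, the largest difference was that of Gsta3 at 0.58, then Gsta2 at 0.37 and Gstm1 at 0.25. Gstk1 at -0.02 was the one below. The second Gsta3 probe gave 0.31, and the second Gstt1 probe 0.38 against 0.18 for the first. The second probes of Gstm2 and Gstp1 gave -0.07 and -0.02. The median member difference was 0.18, against 0.02 over all gene names. Arrays A and B are compared with the same control array, so a high or low control value enters both differences.

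**Figure D4:**
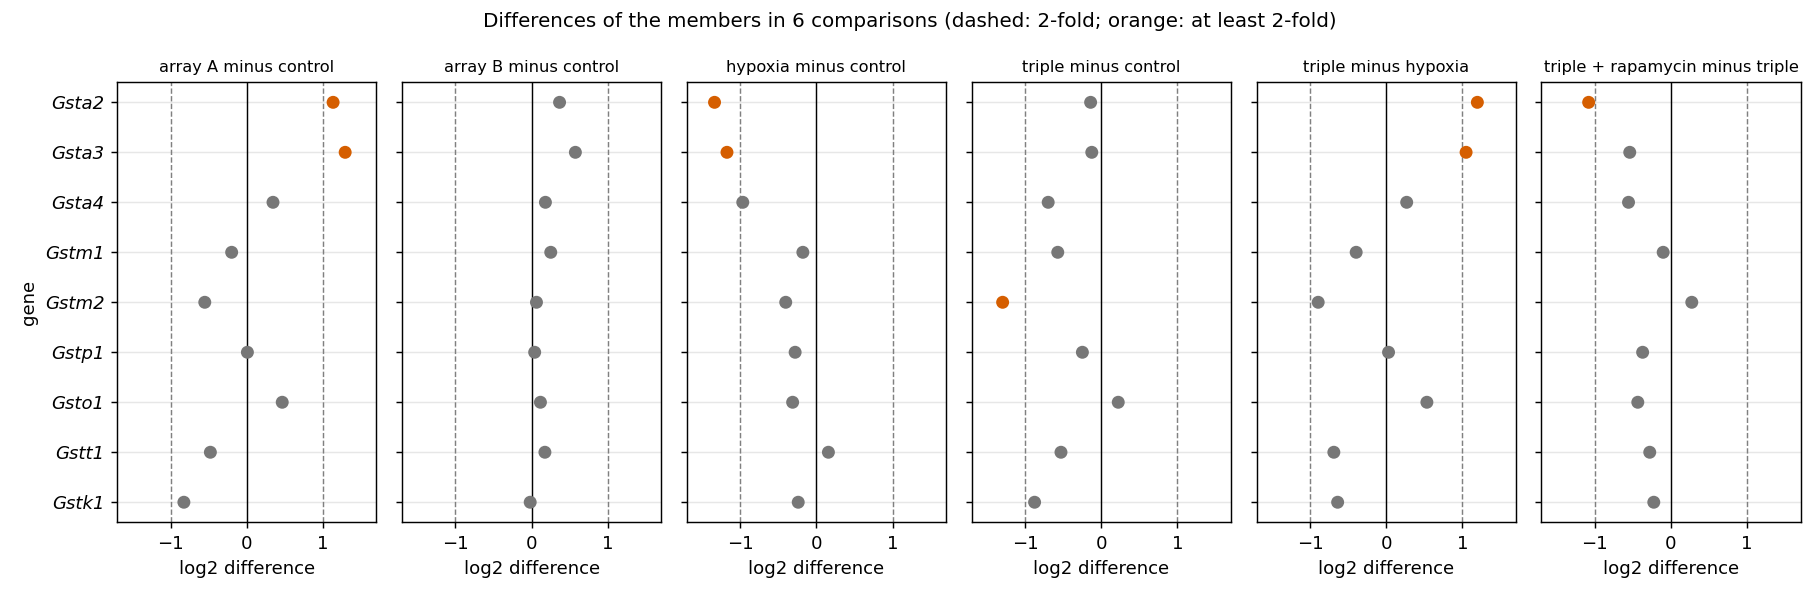
Log2 difference (x axis) of each detected member (y axis) in the 6 comparisons, 1 point per gene with no error bar. Dashed lines mark 2-fold and orange points reach it, which only Gsta2, Gsta3 and Gstm2 do in any of the 6 panels.

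Triple stimuli were compared with control for the joint effect. Here the mu gene Gstm2 was the member at least 2-fold different, at -1.29 (2.45-fold lower), and none was higher. Of all gene names, 5.09% were higher and 1.74% lower. Gstm2 had a level of -0.45 on array A, 0.16 on array B, -0.92 in triple stimuli with rapamycin, -1.20 in triple stimuli, -0.30 in hypoxia and 0.10 in control. Both arrays with triple stimuli were thus below the other 4. A second Gstm2 probe, which overlaps the first by 7 bases, gave -0.88 for triple stimuli against control, short of 2-fold, and the third was above background on 2 arrays only. Gstk1 was at -0.88, Gsta4 at -0.70, Gstm1 at -0.57 and Gstt1 at -0.53, while Gsta2 at -0.14 and Gsta3 at -0.12 were close to control. The second Gsta3 probe, above background on both arrays, gave -0.57, and the mean over both Gsta3 probes was -0.35. Gsto1 was the single member above control, at 0.22, beside 49.3% of all gene names above control. The median over the 9 members was -0.53, against -0.01 over all gene names.

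Gstk1 and Gstm1 had similar orders of levels. Gstk1 had a level of -0.97 on array A, -0.16 on array B, -1.25 in triple stimuli with rapamycin, -1.02 in triple stimuli, -0.38 in hypoxia and -0.15 in control. Gstm1 had a level of 4.88 on array A, 5.33 on array B, 4.40 in triple stimuli with rapamycin, 4.50 in triple stimuli, 4.90 in hypoxia and 5.08 in control. In both, the arrays with triple stimuli were lowest. Both Gstm1 probes gave differences within 0.03 of each other in all 6 comparisons. Gstt1 had a level of -0.20 on array A, 0.45 on array B, -0.53 in triple stimuli with rapamycin, -0.25 in triple stimuli, 0.44 in hypoxia and 0.28 in control. At this probe array A lay with the triple stimuli arrays, and hypoxia with control, but at the second Gstt1 probe they did not. There the level was -2.50 on array A, -2.14 on array B, -2.60 in triple stimuli with rapamycin, -2.61 in triple stimuli, -2.27 in hypoxia and -2.53 in control, so that array A, both triple stimuli arrays and control lay together and triple stimuli against control was -0.08. Against control, the 9 detected proximal tubule markers did not move as a group in triple stimuli, where 4 were below with a median of 0.03. Nor did they on array A, where 5 were below control with a median of -0.22. In triple stimuli against hypoxia 8 of 9 were below, with a median of -0.41, beside 53.5% of all gene names. With rapamycin 8 of 9 were below triple stimuli, with a median of -0.20, beside 55.3%. In hypoxia 1 of 8 measured was below control, with a median of 0.31, beside 51.7%. The endocytic receptor gene Lrp2 was at -0.68 on array A and -1.10 in triple stimuli against control, and the water channel gene Aqp1 at -1.19 and -0.93. In the other direction, the bicarbonate cotransporter gene Slc4a4 was at 0.28 and 1.77, Ggt1 at 0.69 and 0.76 and Pax8 at 0.20 and 0.39. The summed linear level of the 20 markers was 104 on array A, 157 on array B, 100.0 in triple stimuli with rapamycin, 112 in triple stimuli, 183 in hypoxia and 147 in control. Of that sum, 76.4% to 78.9% came from Cdh16, and 11 of the 20 markers were not above background on any array, so it describes mainly 1 probe. Its part in the lower mu, kappa and theta values was not tested.

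Triple stimuli were set against hypoxia to see what high glucose and palmitate added at 1% oxygen. Of 9 members, 2 were at least 2-fold higher in triple stimuli than in hypoxia, Gsta2 by 1.20 (2.29-fold) and Gsta3 by 1.05 (2.07-fold), and none was lower. Of all gene names, 3.51% were higher and 3.03% lower. In the first 64 rows, which hold the Gsta2 spot, the shares were 8.02% higher and 7.46% lower, and among gene names with a mean level of at least 0 they were 1.87% and 1.23%. The Gm10639 and Gm3776 probes gave 0.96 and 1.02. The second Gsta3 probe gave at least 0.26, since it was not above background in hypoxia. The first Gsta3 probe was at 0.61 with normexp and quantile normalization, and the mean over both was 0.65. Gsto1 was at 0.53 and Gsta4 at 0.27, whereas Gstm2 was at -0.89, Gstt1 at -0.69, Gstk1 at -0.64 and Gstm1 at -0.39.

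Array A minus control and triple stimuli minus hypoxia share no array. The sign of the difference was the same in both for 9 of 9 members, beside 71.2% of the 16281 gene names measured in both. Under 4 of 8 other ways of processing the values of Gstp1 had opposite signs, and the count was 8 of 9. Gsta2, Gsta3, Gsta4 and Gsto1 were above 0 in both, and Gstm1, Gstm2, Gstt1 and Gstk1 below 0 in both. Gstp1 was at 0.01 and 0.03, which is no difference beyond the spread between spots. The second probes of Gstp1, at -0.08 and 0.07, and of Gstt1, at 0.03 and -0.34, had opposite signs in these comparisons. The members were picked with earlier results of these arrays known, so this is a description of the 4 arrays.

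**Figure D5:**
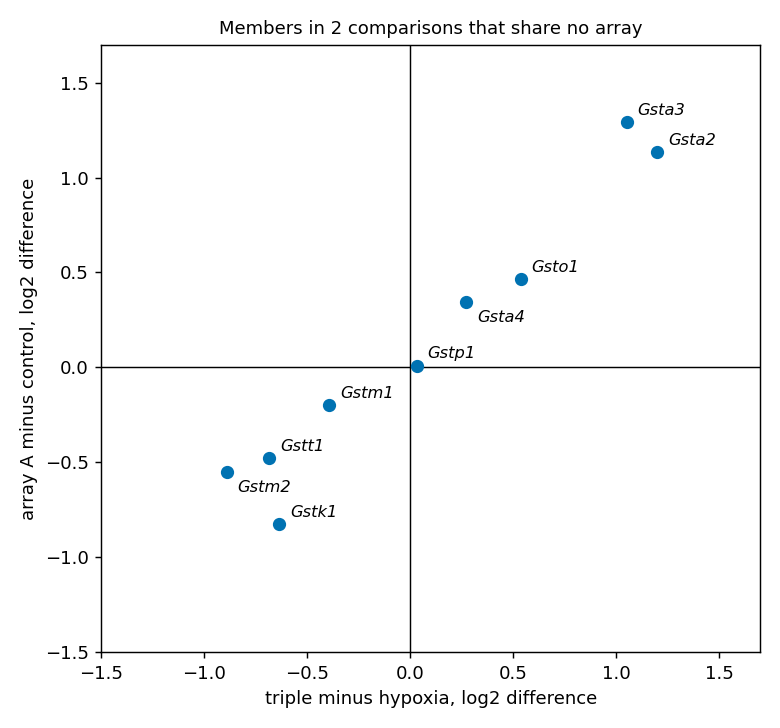
Log2 difference of each detected member between array A and control (y axis) and between triple stimuli and hypoxia (x axis), 1 point per gene with no error bar. All 9 points lie to the lower left or upper right of the origin, with Gstp1, at 0.01 and 0.03, next to the origin.

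Rapamycin was compared within the triple stimuli. Of 9 members, Gsta2 was at least 2-fold lower in triple stimuli with rapamycin than in triple stimuli, at -1.08 (2.12-fold lower), and none was higher. Of all gene names, 2.14% were lower and 1.93% higher. With normexp and quantile normalization Gsta2 was at -0.99, just short of 2-fold, and no member was called. In the first 64 rows 7.03% were higher and 6.96% lower, against 0.153% and 0.498% in the last 64 rows, and among gene names of those first rows with a mean level of at least 0 both shares were 0.213%. The Gm10639 probe had a level of 2.34 in triple stimuli with rapamycin and 3.33 in triple stimuli, a difference of -0.99, and the Gm3776 probe one of -0.90. Gsta4 at -0.56 and Gsta3 at -0.54 came next, and the 10 spots of Gsta4 gave -0.57 ± 0.08 (SD over spots). The second Gsta3 probe, above background on both arrays, gave -0.28. Of 9 members, 8 were below triple stimuli, and 55.3% of all gene names were. The median member difference was -0.37, against -0.03 over all gene names. Gstm2 was the one above, at 0.27, but its second probe gave -0.14.

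The omega and pi genes had the narrowest ranges. Gsto1 had a level of 5.46 on array A, 5.11 on array B, 4.78 in triple stimuli with rapamycin, 5.21 in triple stimuli, 4.68 in hypoxia and 4.99 in control. Gstp1, whose enzyme also binds the kinase JNK, had a level of 5.31 on array A, 5.34 on array B, 4.68 in triple stimuli with rapamycin, 5.05 in triple stimuli, 5.02 in hypoxia and 5.30 in control. Its values at 20% oxygen were within 0.04 of each other and those at 1% were all lower. The second Gstp1 probe gave differences within 0.09 of the first in all 6 comparisons. Gstp1 in triple stimuli with rapamycin was at -0.37 relative to triple stimuli, and Gstp2 probes were at -0.37 and -0.42.

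Over the 3 arrays at 1% oxygen and the 3 at 20%, the levels of Gsta2, Gsta3, Gsta4 and Gstp1 did not overlap, with all arrays at 1% below, for 4 of 9 members. No member had all arrays at 1% above. Of the 15088 gene names above background on all arrays, 16.1% were below and 9.92% above in this way. Gsta2 was between 0.54 and 1.74 at 1% and between 1.88 and 3.01 at 20%. Gsta3 was between -2.72 and -1.67 at 1% and between -1.55 and -0.26 at 20%. Triple stimuli and control nearly met at these probes, but were at -2.82 and -2.25 at the second Gsta3 probe. Gsta4 had the wider gap, with 0.89 to 1.45 at 1% against 2.15 to 2.49 at 20%. The arrays of each oxygen level are 3 different conditions and no replicates. All 6 lay on 1 slide, with the 3 at 1% oxygen on 1 row of it and the 3 at 20% on the other, so oxygen and slide row cannot be told apart.

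The genes whose levels were most like those of a member over the 6 arrays, by the root mean square difference of centred log2 levels among 9536 named genes, were in part other alpha genes. Gsta2 and Gsta3 were each other's nearest, at 0.18, and Gsta4 and Clec4d were the next for both, at 0.37 to 0.40. Predicted genes such as Gm10639 were not candidates. Nearest to Gsta4 were Cbr3 at 0.19, Nqo1 at 0.20 and Mtfp1 at 0.22, of which Nqo1 encodes a quinone reductase and Cbr3 a carbonyl reductase. Gstm2 was nearest to Hmgn3, Ei24 and Mapre2, and Gstk1 to Car5b, Cib2 and Hoxa10. These likenesses rest on 6 arrays that share 1 slide.

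A list of further genes held 15 other names of the transferase family and 5 of proteins related to it in fold or activity, Clic1, Clic4, Gdap1, Ptges and Ptges2. Of these 20, 18 were above background on at least 1 array. None was 2-fold different on array A, on array B or in hypoxia, each against control. The theta gene Gstt3 was at -1.04 in triple stimuli against control and at -1.02 against hypoxia, and at -0.87 on array A against control, beside -0.53, -0.69 and -0.48 for Gstt1. Gstt2 was at -0.88 in triple stimuli against control. The microsomal gene Mgst2 was at 0.58 on array A and -0.50 in hypoxia. Gstm3, Gstm4 and Gstm5 were at -0.49, -0.49 and -0.27 in triple stimuli against control, beside -0.57 for Gstm1. Gstp2 was at -0.16 in hypoxia at 1 probe and -0.40 at another, beside -0.28 for Gstp1. Clic4, a chloride channel protein of related fold, was at 0.31 on array A, 0.42 in triple stimuli against control and 0.49 in triple stimuli against hypoxia. In triple stimuli with rapamycin, 2 of 16 were higher than in triple stimuli, Gdap1 and Gsto2, at least 2.83 and 1.13 on the log2 scale, both from a probe not above background in triple stimuli, beside 1.93% of all gene names. Gdap1 was above background in triple stimuli with rapamycin alone, and its spot lies in row 26, in the first 64 rows, where 7.03% of gene names were higher.

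Genes that supply and recycle glutathione were counted in the same way. Of 18 measured on array A, 4 were higher than control and 1 was lower, beside 1.57% and 0.903% of all gene names. The median was -0.03. In triple stimuli against control 3 were higher and 2 lower, beside 5.09% and 1.74% of all gene names. Slc7a11, the cystine importer, was at 2.48 on array A and 2.21 in triple stimuli. It was above background on 4 arrays, and its spot lies in row 16, within the first 64 rows. There 2.0% of all gene names were higher on array A and 10.8% in triple stimuli, each against control. Slc3a2, the partner of Slc7a11, was at 1.39 and 1.61, and Chac1, which breaks glutathione down, at 1.66 and 1.93. Cth was also higher on array A, at 1.32, and was at 0.71 in triple stimuli. Cbs was lower in both, at -1.27 and -1.11. The glutaredoxin gene Glrx was at -0.69 and -1.41, past 2-fold in triple stimuli only. In hypoxia none of the 18 was 2-fold different from control, beside 4.41% of all gene names higher and 0.46% lower. The median was -0.28, and Slc3a2 was at 0.36 and Chac1 at 0.66. Of 12 genes for export and breakdown of conjugates, 1 was lower in each of 3 comparisons, Ggt6. It was at -1.16 on array A and -1.61 in triple stimuli against control, and at -1.40 in triple stimuli against hypoxia. The shares of all gene names lower in these comparisons were 0.903%, 1.74% and 3.03%. Abcc1, an exporter of conjugates, stayed between 0.04 and 0.57 against control in the 4 comparisons, Ggt1, which trims the conjugates outside the cell, was at 0.69 on array A, 0.77 in hypoxia and 0.76 in triple stimuli, and the acylase gene Acy1 was at -0.52 in hypoxia.

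Other known NRF2 targets were mixed. Of 25 measured on array A, 2 were higher than control, Hmox1 by 1.71 and Sqstm1 by 1.34, and none was lower. Of all gene names, 1.57% were higher and 0.903% lower there. In hypoxia 21 of 26 were below control, with a median of -0.14, beside 51.7% of all gene names. Hmox1, which encodes heme oxygenase, was higher by 1.23. Of those below, Osgin1 was at -0.79 and Txnrd1, thioredoxin reductase, at -0.67. Triple stimuli against hypoxia gave 3 of 26 higher, Sqstm1 at 1.57, Osgin1 at 1.25 and Hmox1 at 1.19, beside 3.51% of all gene names. The spot of Sqstm1 lies in row 26, within the first 64 rows. There 8.02% of gene names were higher, and 1.87% of those with a mean level of at least 0. In triple stimuli with rapamycin 23 of 25 targets were below triple stimuli, beside 55.3% of all gene names. Their median was -0.30, against -0.03 over all gene names. None of the 25 reached 2-fold, Osgin1 at -0.97 and Hmox1 at -0.96 coming nearest. Among regulators, the small Maf gene Maff was at 1.93 in triple stimuli against control and the bile acid receptor gene Nr1h4 at -1.80, Mafk was at 0.46 and Nfe2l1 at 0.70.

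Markers of other cell types were detected in part. Of 8 leukocyte markers, 4 were above background on all 6 arrays, beside 8 of 20 proximal tubule markers. Ptprc was not above background on any array. Csf1r lay between 3.27 and 4.47, Itgam between 2.92 and 3.35 and the endothelial gene Kdr between 2.87 and 3.31. The lysosomal macrophage gene Cd68, with its spot in row 16, was at 1.92 on array A against control and at 1.08 in triple stimuli against hypoxia, 2 comparisons in which Gsta2 and Gsta3 were higher. In the same comparisons Csf1r was at -0.50 and -0.79, Itgam at 0.16 and -0.11 and Cd3e at 0.03 and -0.03. The summed linear level of the 8 was 22.0 on array A, 22.7 on array B, 21.3 in triple stimuli with rapamycin, 25.0 in triple stimuli, 34.4 in hypoxia and 23.5 in control. Without Csf1r, which held 43.8% to 64.4% of it, the sum lay between 9.52 and 12.4, with 12.4 on array A against 9.89 in control and 12.2 in triple stimuli against 12.3 in hypoxia. Of 8 fibroblast markers none was above background on all arrays, of 7 endothelial markers 2 were, of 6 podocyte markers 1 and of 11 markers of later tubule segments 1. Among endothelial markers Flt1 was at 2.25 in hypoxia against control, Kdr at 0.23 and Pecam1, above background on 2 arrays, at 0.21 on array A. The podocyte gene Synpo was at -1.07 in triple stimuli against control. Of the tubule genes Aqp2 was at -0.77 in that comparison and Pvalb at 0.20 in triple stimuli against hypoxia. The collagen gene Col1a2, above background on 2 arrays, was at 0.50 on array A. Their part in the results was not tested.

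RefSeq promoters of the GRCm38.p6 build, 250 bases before to 50 after the start of a gene, were found for every member except Gsta4. The core of the antioxidant response element, TGACNNNGC on either strand, was present in the window of Gsta3 and in 1 of 2 windows of Mgst1, and 12.4% of 32851 promoters hold it. The core of the HIF site, ACGTG on either strand, was in the windows of Gstp1 and Gstt1 and in 1 of 2 for Gstm1, and 19.6% of promoters hold it. The window of Gsta2 held neither. A match is a description of letters and not of a site in use.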

How the data were processed

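Total RNA of 6 cultures was labelled with Cy3 and hybridised to single-colour arrays. Per the file headers, the authors' deposited scanner files hold the spot intensity as processed signal, background-subtracted by Agilent Feature Extraction, version 10.7.3.1 per the submitters' processing notes. The deposited value table was found, from its values, to hold the ratio of that signal to the array's 75th percentile on a linear scale, and it was used as an alternative. Probe coordinates are on mm9, per the file headers.

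Levels were log2 of the processed signal less log2 of the array's 75th percentile over 59305 non-control spots. Spots marked as outliers on any array (683) were left out, spots of a probe were averaged, and of a gene's probes the one with the highest mean level over the 6 arrays was taken. A probe was above background where at least 50% of its spots were. For a dim side, the lowest signal well above background on that array, where higher, replaced the level, and the difference is then a bound. Genes above background on at least 1 array of a comparison were measured in it. With 1 array per condition no test was made. The difference calculation was tested on simulated data. Members, gene lists and named genes were chosen with earlier results of these data known: every member is named, and from each list the 4 genes with the largest difference among those above background on both arrays. Gdap1, Gsto2, Gstm3, Gstm4, Gstm5, Gstp2, Cth, Cbs, Pax8 and Cdh16, which that rule does not give, and the search for probes of like sequence were added after values were seen. Python 3.11.15, pandas 2.3.3, R 4.3.3 and limma 3.58.1 (normexp and quantile alternatives) were used. The number of arrays limits the precision.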

Additional observations from a re-analysis of the deposited data

How the results depend on the processing

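No difference could be checked against replicates, and error within an array is known for Gsta4 alone among the members. Of 432 member values recomputed under 8 other ways of processing, 426 stayed on the same side of 2-fold with the same direction where they had been past it, and none that was past it changed sign. Normexp background correction with quantile normalization left 1 member past 2-fold in place of 2 on array A, 1 in place of 2 in hypoxia, 1 in place of 2 in triple stimuli against hypoxia and 0 in place of 1 with rapamycin, as Gsta3 was at 0.94 on array A, -0.68 in hypoxia and 0.61 in triple stimuli against hypoxia, and Gsta2 at -0.99 with rapamycin. The mean over a gene's probes left 0 in place of 1 in triple stimuli against control, with Gstm2 at -0.84, and 1 in place of 2 in triple stimuli against hypoxia, with Gsta3 at 0.65. At 1.5-fold, 3 of 9 members differed in triple stimuli against control and 5 in triple stimuli against hypoxia. Of 17805 gene names, 1955 were higher and 1371 lower by that size in triple stimuli against control. Against hypoxia 1452 were higher and 1354 lower, of 17079. The lower fold changes counts by construction. The mean takes in the other probes of a gene. For Gstm2 in triple stimuli against control these gave -0.88 and -0.35 or lower, and for Gsta3 against hypoxia at least 0.26. With normexp the counts over all gene names fell as well, on array A from 280 higher and 161 lower to 136 and 33. They fell from 785 and 82 to 416 and 15 in hypoxia, and from 600 and 518 to 329 and 239 in triple stimuli against hypoxia. With rapamycin they fell from 334 and 370 to 165 and 162. For normexp the cause was not tested. At Mgst1, signal over background allowed no value. No paired analysis was possible because each condition had 1 array.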
